A study of Mus musculus with 12 samples.

Results

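The 10 genes described here belong to the integrated stress response: Atf4, Atf5, Ddit3, Trib3, Chac1, Ddit4, Sesn2, Asns, Psat1 and Phgdh. They were taken by name from 24906 genes listed in each table, and all 10 were found in both. Their mRNA levels come from 12 RNA-Seq libraries of small intestinal tumor organoids, which are cell clusters grown in culture from macroscopic tumors of Smad4f/f; BRAFV600E/+; Villin-CreERT2 mice. Every library therefore came from Smad4KO;BRAFV600E/+ tissue, in which a tamoxifen-activated Cre under the Villin promoter acts in the intestinal epithelium, and the organoids were transduced with lentiviral pINDUCER-SMAD4, which expresses SMAD4 when doxycycline (dox) is added. Organoids were left untreated (vehicle) or received 4 µg/mL dox for 48 h in crypt culture medium. Culture was in BME (basement membrane extract, a gel in which organoids grow in 3 dimensions) or directly on tissue culture plastic.

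In BME there were 3 untreated libraries (lines 682, 700 and 889) and 2 dox libraries (lines 700 and 889). A further BME library of line 682 was treated with dox and is labelled mock. Its genotype label names pINDUCER-SMAD4 like the others, so whether it carried the construct is not settled by the labels. The plastic set held 3 libraries of each arm, from lines 560, 700 and 889. Both libraries of a line in 1 environment form a same-line pair, giving 5 induced pairs and 1 mock pair. Lines 700 and 889 occur in both environments, so the 5 pairs come from 3 lines. The effect of dox itself and that of SMAD4 cannot be told apart in the induced pairs. The induced pairs ask what happens to these genes when SMAD4 is put back. The mock pair shows how the dox library labelled mock differed from the untreated library of its line. With 1 such pair, an effect of dox cannot be told from variation between libraries.

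The integrated stress response is a signaling route in which kinases that sense amino acid shortage, unfolded protein in the endoplasmic reticulum, heme shortage or viral RNA phosphorylate the translation factor eIF2alpha. General protein synthesis is then lowered while the mRNA of the transcription factor ATF4 is translated more, and ATF4 switches on genes for amino acid synthesis and uptake, tRNA charging, redox balance and, under prolonged stress, cell death. Because ATF4 is controlled largely at translation, the level of Atf4 mRNA is not a measure of ATF4 protein. In the intestinal epithelium the pathway is known from secretory cells and from the response to nutrient shortage.

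Values are FPKM (sequenced fragments relative to transcript length and library depth), which the authors scaled within each table. The BME and plastic tables were scaled separately on their own 6 libraries, so levels in both environments are given side by side and were never tested against each other. Changes are differences in log2(FPKM + 1), dox minus untreated of the same line, a scale that understates the change of low genes such as Chac1 in BME. Rebuilt totals were 14526081 to 16349418 reads in BME and 16986388 to 21037350 on plastic. Between 12 (Chac1 in BME) and 12378 reads (Phgdh on plastic) lay behind each value of the 10 genes. Smad4 itself was higher with dox in 5 of 5 induced pairs, from 2.64-fold (BME line 700) to 47.8-fold (plastic line 560), and 1.15-fold higher in the mock pair. Summed FPKM of 7 intestinal epithelium markers was 6329 to 7229 in the BME dox libraries against 3392 to 4173 in the untreated ones and 4010 in the mock library, and 8733 to 15734 against 8729 to 9313 on plastic. Most of these sums was Krt8 and Krt18, at 5074 to 5762 FPKM with dox against 2358 to 3055 untreated in BME, while the other 5 markers summed to 1255 to 1467 against 1034 to 1325 in BME, which overlap, and to 915 to 1263 against 794 to 894 on plastic, which do not. Of these 5, Epcam and Vil1 were higher in 5 of 5 induced pairs, Cdh1 and Krt20 were higher in 4, and Cldn7 was lower in 4. Summed markers of fibroblasts and smooth muscle were at most 7.07 FPKM and those of endothelium at most 0.671 FPKM. The 6 immune markers summed to 3.57 to 39.2 FPKM. Of these, the defining gene Ptprc was at most 0.0958 FPKM, and Cd3e was at most 0.0566 FPKM in BME and at 0 in all plastic libraries. Csf1r reached 0.576 FPKM in BME and 1.26 FPKM on plastic, and Lyz2 reached 0.662 and 0.166 FPKM. Cd68 reached 38.7 FPKM in the plastic dox library of line 889, and which cells expressed it was not tested. The part of these shifts in the results below was not tested. In bulk RNA, fewer cells of a type and less RNA per cell cannot be told apart.

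Among the untreated libraries (n = 3 per environment) Atf4 had the highest mean level in BME, at 116 ± 8.98 FPKM (SD), followed by Psat1 at 103 ± 24.2 and Phgdh at 92.3 ± 2.06. The lowest was Chac1, at 2.63 ± 2.79 FPKM. On plastic, Phgdh had the highest mean, at 296 ± 47.2 FPKM, followed by Atf4 at 184 ± 22.7, Asns at 175 ± 22.9 and Psat1 at 171 ± 13.3, and Ddit3 was lowest at 10.9 ± 4.76. These levels are per length, so they can be ranked between genes. In BME the ranges over lines overlapped between neighbours in this order except between Phgdh and Asns and between Ddit4 and Sesn2. On plastic they did not overlap between Phgdh and Atf4, between Psat1 and Atf5, or between Ddit4 and Sesn2.

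**Figure D1:**
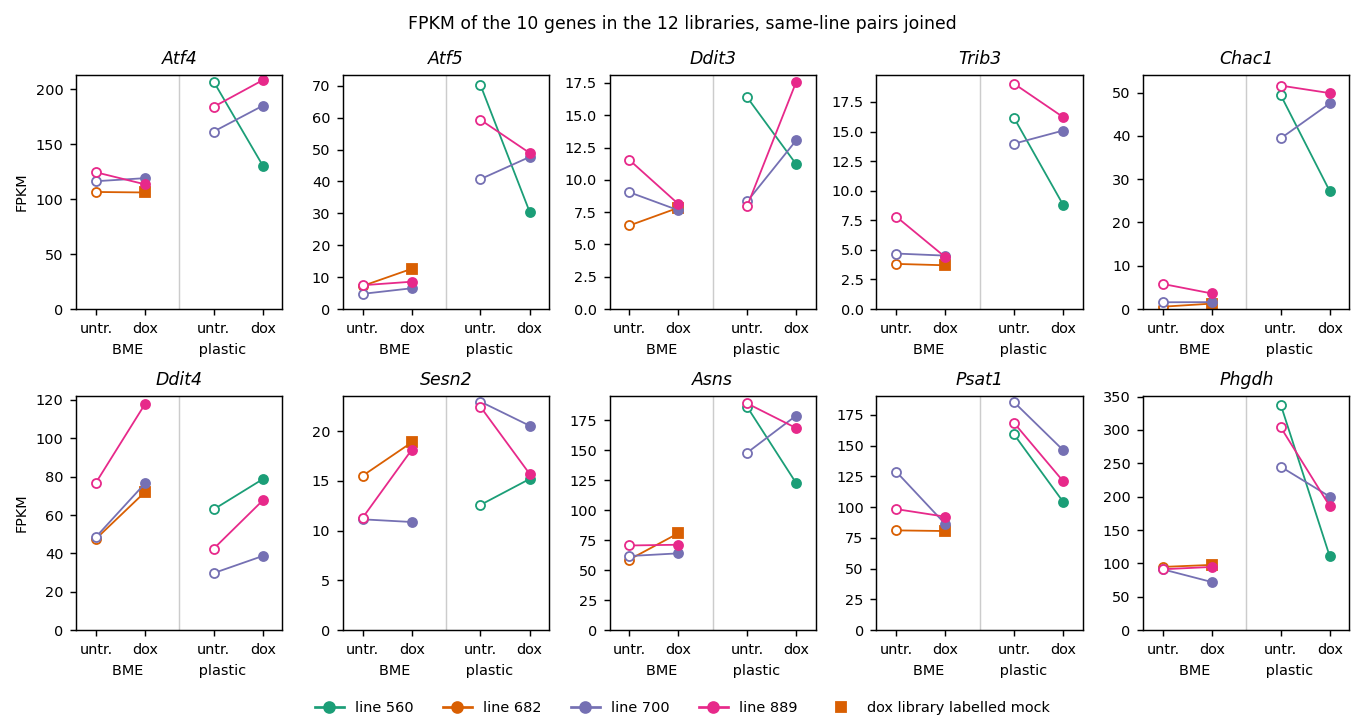
FPKM (vertical axes, linear and starting at 0) of the 10 genes in every library, untreated (open) and dox (filled), BME at the left and plastic at the right of each panel. Lines join the untreated and dox libraries of 1 organoid line, and the square is the dox library labelled mock. Ddit4 was higher with dox in all 6 pairs, Psat1 was lower in the 5 induced pairs, and the plastic pair of line 560 ran steeply down for Atf4, Atf5, Trib3, Chac1, Asns and Phgdh.

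Atf4 encodes the transcription factor at the center of the response (chromosome 15, 80085614 to 80087970, plus strand; GENCODE vM1 on NCBIM37, as for the other genes). In BME its level was 116 FPKM without dox and 119 FPKM with it in line 700, 124 and 114 FPKM in line 889, and 107 and 106 FPKM in the mock pair of line 682. In the plastic libraries it was 207 FPKM without dox and 131 FPKM with it in line 560, 162 and 185 FPKM in line 700, and 184 and 208 FPKM in line 889. In BME both induced dox libraries lay within the range of the untreated ones, and on plastic the lowest and the highest of the 6 values were both dox libraries. The fitted changes were 0.04 in BME (SE 0.13), -0.10 on plastic (SE 0.24) and -0.08 over the 5 pairs (SE 0.15; limma adjusted p 0.985, 0.954 and 0.843).

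Atf5 encodes a related bZIP factor whose translation is also raised by eIF2alpha phosphorylation (chromosome 7, 52067627 to 52072028, minus strand). In BME it was 4.76 FPKM without dox and 6.51 FPKM with it in line 700, and 7.46 and 8.57 FPKM in line 889. The mock pair of line 682 had the largest difference in BME, from 7.24 to 12.6 FPKM. On plastic Atf5 was 70.2 FPKM without dox and 30.6 FPKM with it in line 560, 40.7 and 47.7 FPKM in line 700, and 59.3 and 49.0 FPKM in line 889. Arms overlapped in both environments, and the fitted changes were -0.02 in BME (SE 0.34) and -0.41 on plastic (SE 0.29; limma adjusted p 0.995 and 0.779), the BME value turning to 0.28 (SE 0.26) with the line as a block.

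Ddit3 encodes CHOP, a bZIP factor linked to cell death under lasting stress (chromosome 10, 126727830 to 126733344, plus strand). In BME it was 9.04 FPKM without dox and 7.64 FPKM with it in line 700, 11.5 and 8.12 FPKM in line 889, and 6.47 and 7.84 FPKM in the mock pair. Plastic levels were 16.4 FPKM without dox and 11.2 FPKM with it in line 560, 8.33 and 13.1 FPKM in line 700, and 7.97 and 17.6 FPKM in line 889. Thus Ddit3 was lower with dox in both induced BME pairs and in line 560, and higher in lines 700 and 889 on plastic, where line 889 had the largest fold difference of its pairs, at 2.21-fold. The difference between environments was 0.48 (SE 0.42) and did not pass (limma adjusted p 1.000). It was 0.72 (SE 0.44) with the line as a block and 1.16 (SE 0.28) in lines 700 and 889 alone, where it did not pass either (limma adjusted p 0.940 and 1.000), and the arms overlapped in both tables.

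ATF4 acts with C/EBP partners at composite sites called CARE (C/EBP-ATF response elements). The gapped core TGATGNAA, in which N is any base, was searched on both strands from 250 bases before to 50 bases after the start site in RefSeq promoters of GRCm38.p6, a build other than that of the positions above. All 10 genes had a promoter (12 in all, since Atf5 and Psat1 have a pair each), and Chac1, Asns and Trib3 held the core. In all, 4.51% of 27025 genes, or 3.97% of 32851 promoters, held it. The stretches with the core are shown 5′ to 3′ on the strand of the gene, the core in capitals, because these are the genes of the 10 in which the letters of the ATF4 site stand near the start site. Counted from 1 at the start site, the core lies at -193 to -186 in Chac1, at -23 to -16 in Asns and at 15 to 22 in Trib3. It reads as TGATGCAA on the opposite strand in Chac1, as TGATGAAA on the gene's strand in Asns and as TGATGTAA on the opposite strand in Trib3. A match is a description of letters and does not show binding. The Chac1 and Asns stretches are the 250 bases before the start site (chr2:119350992-119351241, plus strand, and chr6:7693210-7693459, minus strand), and the Trib3 stretch holds 30 bases from 4 to 33 (chr2:152344028-152344057, minus strand).
Chac1: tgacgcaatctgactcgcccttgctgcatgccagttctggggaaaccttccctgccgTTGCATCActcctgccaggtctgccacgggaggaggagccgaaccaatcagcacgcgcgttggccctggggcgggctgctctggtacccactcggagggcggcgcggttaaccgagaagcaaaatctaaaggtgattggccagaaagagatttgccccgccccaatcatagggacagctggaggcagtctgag
Asns: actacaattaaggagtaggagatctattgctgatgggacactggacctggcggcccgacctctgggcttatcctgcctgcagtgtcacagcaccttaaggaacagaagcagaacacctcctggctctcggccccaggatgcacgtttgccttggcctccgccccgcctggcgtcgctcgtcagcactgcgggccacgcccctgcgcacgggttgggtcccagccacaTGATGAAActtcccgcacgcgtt
Trib3: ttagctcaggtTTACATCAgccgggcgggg

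These 3 genes with the core did not share a direction in every pair. Trib3, a pseudokinase that binds AKT and dampens ATF4 and CHOP activity (chromosome 2, 152163158 to 152169768, minus strand), was 4.69 FPKM without dox and 4.52 FPKM with it in BME line 700, 7.82 and 4.39 FPKM in line 889, and 3.82 and 3.70 FPKM in the mock pair. In plastic culture it was 16.2 FPKM without dox and 8.82 FPKM with it in line 560, 14.0 and 15.1 FPKM in line 700, and 19.1 and 16.2 FPKM in line 889. It was lower with dox in 4 of 5 induced pairs, with a fitted change of -0.34 over the pairs (SE 0.17, 95% confidence interval -0.73 to 0.06, limma adjusted p 0.374), and -0.22 without the plastic pair of line 560.

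Chac1 encodes an enzyme that degrades glutathione (chromosome 2, 119176965 to 119180117, plus strand). Its level in BME was 1.56 FPKM without dox and 1.60 FPKM with it in line 700, 5.80 and 3.59 FPKM in line 889, and 0.540 and 1.26 FPKM in the mock pair, from 12 to 139 reads per library. On plastic it was 49.5 FPKM without dox and 27.2 FPKM with it in line 560, 39.4 and 47.5 FPKM in line 700, and 51.6 and 49.9 FPKM in line 889. Chac1 had the widest spread of the 10 genes within BME, 10.7-fold between the lowest and the highest library, and both extremes were untreated libraries, of lines 682 and 889. The fitted changes were 0.31 in BME (SE 0.60) and -0.21 on plastic (SE 0.28; limma adjusted p 0.975 and 0.894). With the line as a block the BME value turned to -0.27 (SE 0.26).

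Asns encodes asparagine synthetase, a classic target of the amino acid response (chromosome 6, 7625169 to 7643254, minus strand). In BME it was 61.8 FPKM without dox and 64.1 FPKM with it in line 700, 70.7 and 71.3 FPKM in line 889, and 58.9 and 80.9 FPKM in the mock pair. The mock library was thus the highest of the 6 in BME. On plastic Asns was 186 FPKM without dox and 123 FPKM with it in line 560, 148 and 179 FPKM in line 700, and 189 and 169 FPKM in line 889. The fitted changes were close to 0 in BME, with a 95% confidence interval of -0.41 to 0.41, and -0.16 on plastic (interval -0.71 to 0.38; limma adjusted p 0.999 and 0.899), so changes of a size within these intervals could not be told from 0 in these libraries.

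Phgdh and Psat1 encode the first and second enzymes of serine synthesis from a glycolytic intermediate. Psat1 (chromosome 19, 15979168 to 16021827, minus strand) was 129 FPKM without dox and 86.4 FPKM with it in BME line 700, and 98.5 and 92.3 FPKM in line 889. In the mock pair it was 81.1 and 80.6 FPKM. In the plastic libraries it was 159 FPKM without dox and 105 FPKM with it in line 560, 185 and 146 FPKM in line 700, and 169 and 121 FPKM in line 889. Psat1 was lower in 5 of 5 induced pairs, by 0.09 to 0.60 on the log2 scale in size, while the mock pair differed by -0.01. Its fitted change over the pairs was -0.42 (SE 0.12, 95% confidence interval -0.70 to -0.13), which missed the threshold over all genes (limma adjusted p 0.188, range over 11 alternatives 0.153 to 0.488). An exact sign-flip test over the 5 pairs, two-sided, gave p = 0.0625, the smallest it can give. It counts lines 700 and 889 in both environments as separate. Over the means of the 3 lines the exact test gave p = 0.25, again the smallest possible. Both p-values follow from the 5 equal signs already given and add no support to them. The exact permutation test of dox and control libraries gave p = 0.933 in BME and p = 0.1 on plastic. On plastic the fitted change was -0.47 (SE 0.20, limma adjusted p 0.613), and in BME it was -0.10 (SE 0.22, limma adjusted p 0.979).

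Phgdh (chromosome 3, 98117093 to 98143913, minus strand) was 91.1 FPKM without dox and 72.0 FPKM with it in BME line 700, 91.2 and 94.7 FPKM in line 889, and 94.7 and 97.8 FPKM in the mock pair. Plastic levels were 338 FPKM without dox and 110.4 FPKM with it in line 560, 245 and 200.1 FPKM in line 700, and 304 and 186 FPKM in line 889. The 3 plastic dox libraries all lay below the 3 untreated ones, as they did for Psat1. Of the 10 genes, 2 had plastic dox libraries all below the untreated libraries, against 7.26% of the genes tested on plastic. Phgdh had the largest fitted change of the 10 on plastic, at -0.87 (SE 0.29, 95% confidence interval -1.56 to -0.18, limma adjusted p 0.53). The exact permutation test on plastic gave p = 0.1, the smallest that 3 against 3 libraries allow. That p-value follows from the arms not overlapping and adds no support to it. In BME the same test gave p = 0.4, and the exact sign-flip test over the 5 pairs gave p = 0.125. Over the 5 pairs the change was -0.58 (SE 0.23, limma adjusted p 0.289), and it was -0.32 without the plastic pair of line 560. The difference between environments, plastic minus BME, was -0.69 (SE 0.33) and missed the threshold (limma adjusted p 1.000). In lines 700 and 889, the ones present in both environments, it was -0.36 (SE 0.27).

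Ddit4 and Sesn2 encode stress-induced inhibitors of mTORC1, the kinase complex that couples nutrients to growth. Ddit4, also known as REDD1 (chromosome 10, 59412423 to 59414518, minus strand), was 48.5 FPKM without dox and 76.5 FPKM with it in BME line 700, and 76.8 and 118 FPKM in line 889. In the mock pair it was 47.5 and 72.0 FPKM. In plastic culture it was 62.9 FPKM without dox and 78.7 FPKM with it in line 560, 29.7 and 38.7 FPKM in line 700, and 42.5 and 67.6 FPKM in line 889. Ddit4 was the 1 gene of the 10 that was higher with dox in 5 of 5 induced pairs, by 1.25-fold to 1.59-fold, and it was 1.51-fold higher in the mock pair, within the range of the induced ones. Levels differed more between lines than with dox on plastic, so the arms overlapped there, and in BME the untreated library of line 889 lay at the level of the dox library of line 700. The fitted change over the pairs was 0.52 (SE 0.11, 95% confidence interval 0.26 to 0.78), the smallest p of the 10 genes, and it did not pass over all genes (limma adjusted p 0.138, range over 11 alternatives 0.138 to 0.646). The exact sign-flip test gave p = 0.0625 over the 5 pairs and p = 0.25 over the 3 line means, the smallest each can give. Both follow from the 5 equal signs and add no support to them. The exact permutation test of dox and control libraries gave p = 0.267 in BME and p = 0.4 on plastic. The fitted change was 0.66 in BME (SE 0.29, limma adjusted p 0.959) and 0.45 on plastic (SE 0.37, limma adjusted p 0.811). Single libraries moved these values, to 0.35 without the BME dox library of line 889 and 0.97 without that of line 700, and on plastic to 0.19 without the untreated and 0.75 without the dox library of line 700. These fits did not pair by line, so leaving out 1 library also shifted the balance of lines between arms. By same-line pair the change was 0.64 and 0.61 in BME lines 700 and 889. On plastic the pairs of lines 560, 700 and 889 changed by 0.32, 0.37 and 0.66. The difference between environments was -0.21 (SE 0.50, limma adjusted p 1.000).

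Sesn2 encodes a leucine-sensing protein that restrains mTORC1 (chromosome 4, 132047947 to 132066416, minus strand). In BME it was 11.1 FPKM without dox and 10.9 FPKM with it in line 700, 11.3 and 18.1 FPKM in line 889, and 15.5 and 18.9 FPKM in the mock pair. On plastic it was 12.6 FPKM without dox and 15.2 FPKM with it in line 560, 23.0 and 20.5 FPKM in line 700, and 22.5 and 15.7 FPKM in line 889. Line 889 was higher with dox in BME and lower on plastic, and the arms overlapped in each. The fitted change over the pairs was 0.04 (SE 0.17, limma adjusted p 0.928).

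**Figure D2:**
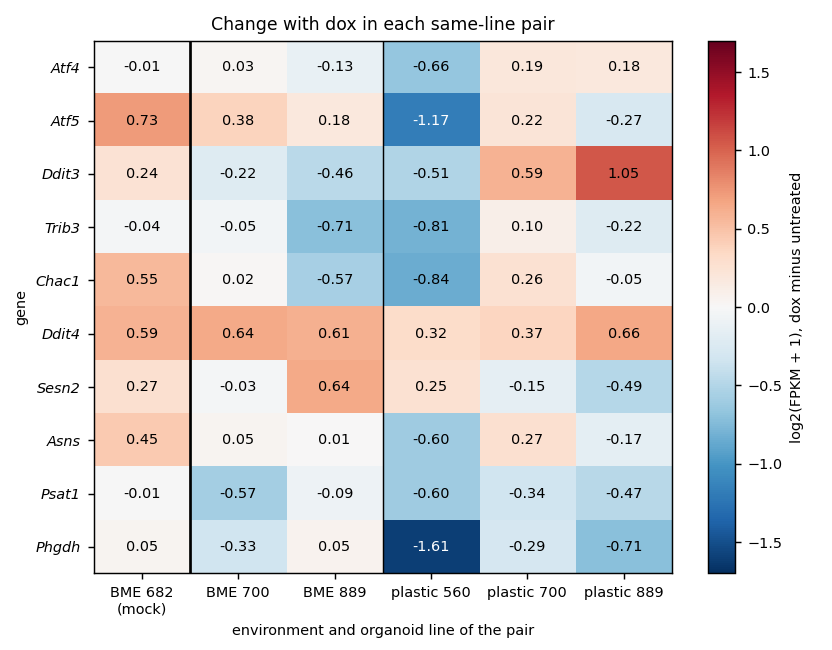
Change in log2(FPKM + 1), dox minus untreated, for each of the 10 genes (rows) in each same-line pair (columns), red for higher and blue for lower with dox, with the value in each cell. The mock pair stands left of the thick line. The row of Ddit4 is red throughout, and the plastic pair of line 560 has 8 of its 10 cells blue, down to -1.61 for Phgdh.

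Read by pair rather than by gene, the 10 genes had no common direction across the induced pairs. Their median change was -0.01 in BME line 700 and -0.04 in BME line 889, with 5 genes higher and 5 lower in each. In the plastic libraries it was -0.63 in line 560 (2 higher, 8 lower), 0.21 in line 700 (7 higher, 3 lower) and -0.19 in line 889 (3 higher, 7 lower). The median over all genes tested in both tables lay between -0.01 and 0.01 in every pair. Line 560 was the induced line with the largest Smad4 difference and was present on plastic alone. The dox library of this line was the lowest of the 6 plastic libraries for Atf4, Atf5, Trib3, Chac1, Asns, Psat1 and Phgdh.

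The mock pair was compared with the induced range for each gene. Its median change was 0.26, with 7 genes higher and 3 lower. For 6 of the 10 genes the mock change lay within the range of the 5 induced pairs, and for 4 it lay above, where 20.5% of all genes tested in both tables lay outside the range and 9.17% above it: Atf5 (0.73 against at most 0.38), Asns (0.45 against at most 0.27), Chac1 (0.55 against at most 0.26) and Psat1 (-0.01 against at most -0.09). With 1 mock pair these differences have no replicate check, and nothing particular to the 10 genes is read from the count.

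Across libraries, 8 of the 10 genes had mixed signs over the induced pairs, 1 was higher in 5 of 5 (Ddit4) and 1 lower in 5 of 5 (Psat1). The background shares were 8.7% of tested genes higher in 5 of 5 pairs and 8.06% lower. Calling a gene took a limma adjusted p under 0.05 together with a change of more than 1 in size. None of the 10 was called in BME, where 0.0231% of 12996 tested genes were, on plastic (0.0324% of 12333), over the 5 pairs (0.217% of 11977) or for the difference between environments (0% of 11977). Smad4, the induced gene, was not called in any of them either (limma adjusted p 0.959 in BME, 0.162 on plastic, 0.0961 over the pairs). A gene that was not called is therefore not shown to be unchanged. Pairing by line moved the called genes from 3 to 0 in BME and from 4 to 7 on plastic, and none was one of the 10. At an unadjusted p under 0.05, 0 of the 10 passed in BME (background 4.09%, both directions) and 0 for the difference between environments (2.53%). With the line as a block in BME, Ddit4 passed (0.63, SE 0.22, limma adjusted p 0.671) among higher genes (background 4.38%), Psat1 was -0.33 (SE 0.15) in place of -0.10, and Chac1 and Atf5 turned sign as given above. On plastic Phgdh passed among lower genes (background 3.73%). Over the 5 pairs Ddit4 passed among higher genes (8.76%) and Psat1 and Phgdh among lower ones (7.48%). In BME none of the 10 had both dox libraries above, or both below, all 4 control libraries, which held for 12.2% of all tested genes. The smallest limma adjusted p of the 10 was 0.959 in BME, 0.53 on plastic and 0.138 over the pairs.

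**Figure D3:**
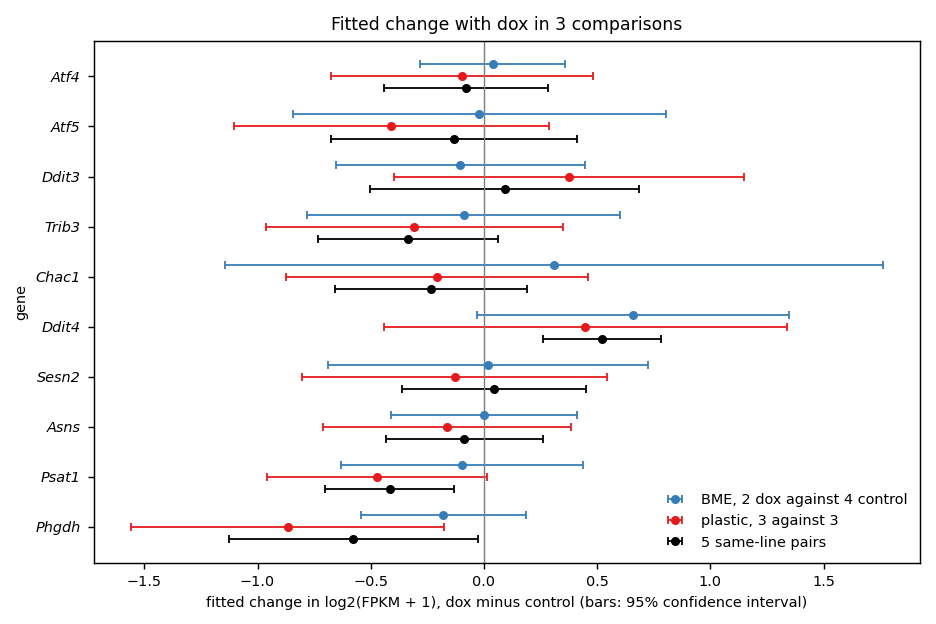
Fitted change in log2(FPKM + 1), dox minus control, with its 95% confidence interval (horizontal axis) for each of the 10 genes in BME (2 dox against 4 control libraries, the mock library among the controls), on plastic (3 against 3) and over the 5 same-line pairs. The intervals over the pairs leave out 0 for Ddit4 (0.26 to 0.78), Psat1 (-0.70 to -0.13) and Phgdh (-1.13 to -0.03), none of which passed the limma adjusted p over all genes. These intervals count the 5 pairs as separate, although the pairs come from 3 lines. Over 11 alternatives the unadjusted limma p was under 0.05 in 11 for Psat1, 10 for Ddit4 and 5 for Phgdh.

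How far the 10 genes varied together was described with log2(FPKM + 1) centred within each table, which leaves dox and line differences in place (the 12 libraries come from 4 lines and share lines in pairs, so they are not independent). Pearson r with the mean of the other 9 genes was 0.85 for Asns (Spearman rho 0.73), 0.75 for Atf4 (rho 0.55), 0.73 for Trib3 (rho 0.55) and 0.70 for Chac1 (rho 0.81). It was 0.66 for Phgdh (rho 0.36) and 0.62 for Atf5 (rho 0.68), and lower for Psat1 (0.26) and Ddit3 (0.24). Ddit4 and Sesn2 were at -0.06 and -0.11, where Ddit4 joined opposite values of 0.52 in BME and -0.41 on plastic (6 libraries each). Much of this came from 1 pair. Without the plastic pair of line 560 (10 libraries, chosen after seeing the values) r was 0.26 for Atf4 (rho 0.21), 0.34 for Atf5 (rho 0.68) and 0.08 for Phgdh (rho 0.08). It was 0.75 for Chac1 (rho 0.79), 0.68 for Asns (rho 0.72), 0.51 for Trib3 (rho 0.47) and 0.50 for Ddit4 (rho 0.55). Psat1 turned sign, to -0.24, and Ddit3 and Sesn2 were at 0.17 and -0.12. Among single pairs of genes, Atf5 with Asns went from 0.88 to 0.83, Trib3 with Chac1 was 0.81 with and without line 560, and Atf4 with Ddit3 went from 0.56 to 0.80.

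**Figure D4:**
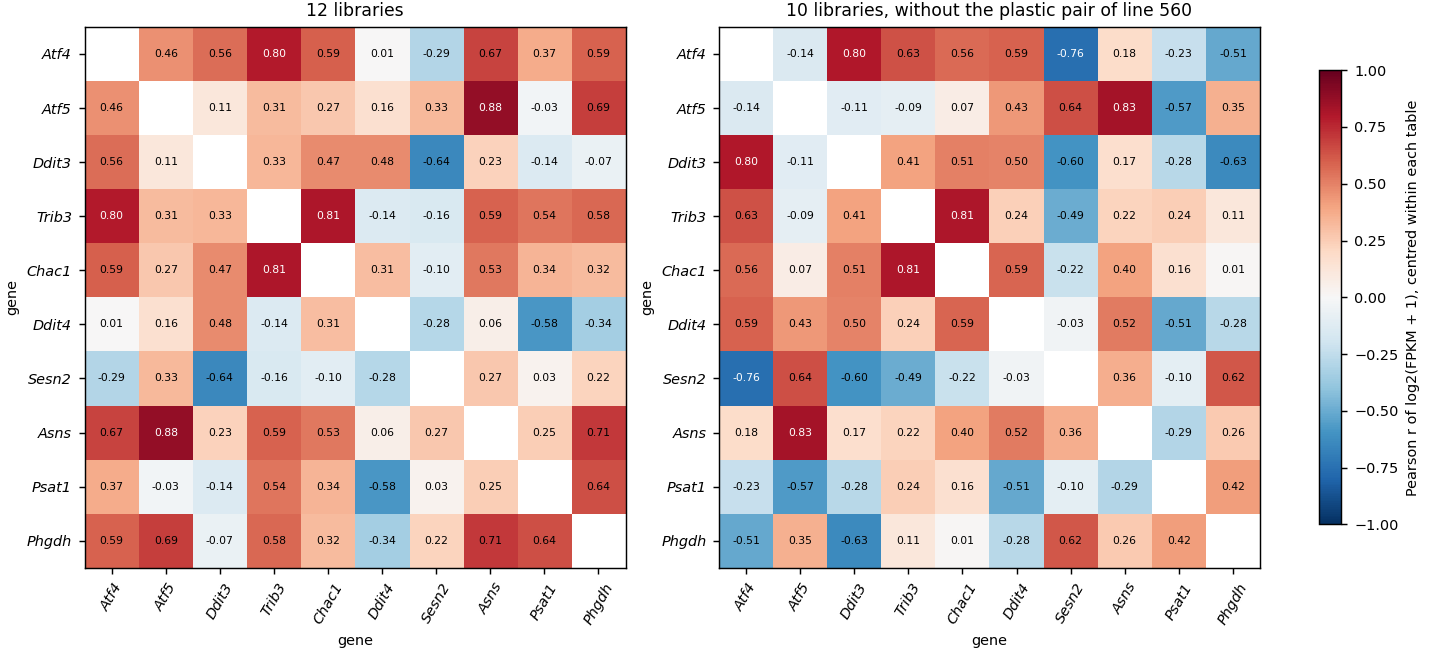
Pearson r between the 10 genes (both axes) of log2(FPKM + 1) centred within each table, over 12 libraries at the left and over 10 libraries without the plastic pair of line 560 at the right, red for positive and blue for negative. Atf5 with Asns and Trib3 with Chac1 kept an r above 0.8 at the right, and Atf4 with Phgdh went from 0.59 to -0.51.

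Among 11967 other genes, those most like the mean of the 10 over the 12 libraries were Pomgnt1, a glycosyltransferase (r = 0.88), Hsf1, the heat shock transcription factor (0.86), and the kinase gene Pim2 (0.86). Abcf2, 1600014C10Rik, Nop2, Rnf126, Bop1, Atxn2l and Pdrg1 followed, with r from 0.85 down to 0.83. Of the pathway lists below, Psph, the last enzyme of serine synthesis, was among the 100 most alike. The median r was 0.41 for 20 aminoacyl-tRNA synthetases and -0.01 over all genes. It was 0.30 for 14 endoplasmic reticulum chaperones and ATF6 or XBP1 targets and 0.26 for 10 subunits of eIF2, eIF2B and the phosphatases. For 12 serine, one-carbon, proline and transsulfuration enzymes it was 0.21. Other ATF4 targets were at 0.04, bZIP partners and other regulators at 0.03 and amino acid transporters at -0.02. The remaining pathway lists lay between -0.15 and 0.02.

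The kinases and eIF2 machinery that feed the response were measured next. Of the 4 eIF2alpha kinases, 0 were called in any comparison. Eif2ak3, which encodes the endoplasmic reticulum sensor PERK, differed by 1.08, 0.42 and 0.92 in the plastic pairs of lines 560, 700 and 889 and by -0.13 and -0.04 in BME lines 700 and 889. Its fitted value on plastic was 0.81 (SE 0.30, limma adjusted p 0.578). Eif2ak2, the kinase PKR, ranged from -0.57 to 0.95 over the induced pairs. Of 10 subunits of eIF2, eIF2B and the eIF2alpha phosphatases, 0 were called. Eif2b3, a subunit of the exchange factor eIF2B, was lower in 5 of 5 pairs (-0.00 in BME line 700), at -0.29 on average (limma adjusted p 0.301), and Ppp1r15a, the stress-induced phosphatase subunit GADD34, was 1.29 and 0.97 higher in plastic lines 700 and 889 and 0.30 lower in line 560, the same signs as Ddit3 on plastic. Among 6 tested bZIP partners and other regulators, 0 were called, with Cebpb, a C/EBP partner of ATF4, at 0.51 over the pairs (limma adjusted p 0.305) and Nupr1 at -0.41.

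The target genes of the pathway beyond the 10 were not called either. Of the 20 cytosolic aminoacyl-tRNA synthetases, which charge tRNAs and include many ATF4 targets, 20 had a fitted change below 0 over the 5 pairs, with a median of -0.22 against 0.00 for all genes, and 8 were lower in 5 of 5 pairs. On plastic 20 of 20 were also below 0 (median -0.28), and in BME, against the 4 control libraries, 9 of 20 were (median 0.03). The sign in BME depended on the control. Against the untreated library of the same line 14 of 20 were lower in line 700 (median -0.07) and 16 of 20 in line 889 (median -0.19), with 9 of 20 lower in the mock pair (median 0.09). At an unadjusted p under 0.05, 7 were lower over the pairs (Cars, Gars, Kars, Lars, Mars, Vars and Wars) and 0 were called. Vars differed by -0.59 and -0.09 in BME lines 700 and 889 and by -0.59, -1.08 and -0.97 on plastic, and by 0.15 in the mock pair. Wars differed by -0.30 and -0.58 in BME and -0.70, -0.88 and -0.60 on plastic, and by -0.16 in the mock pair (limma adjusted p over the pairs 0.151 for Vars and 0.123 for Wars).

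Of 12 further enzymes of serine, one-carbon, proline and transsulfuration metabolism, 11 were below 0 over the pairs (median -0.28) and 11 on plastic (median -0.49). In BME 5 of 12 were below 0 against the 4 control libraries (median 0.10), but 10 of 12 were lower in the same-line pair of line 700 (median -0.17) and 7 of 12 in that of line 889 (median -0.06). Shmt1 and Shmt2, which turn serine into glycine and one-carbon units, were lower in 5 of 5 induced pairs. Shmt1 differed by -1.26 and -0.21 in BME and by -0.18, -1.26 and -1.37 on plastic, and Shmt2 by -0.61 and -0.14 in BME and by -1.13, -0.64 and -0.71 on plastic. In the mock pair they differed by -0.38 and -0.27, in the direction of the induced pairs, where Psat1 differed by -0.01 and Phgdh by 0.05. The list as a whole went the other way in the mock pair, with 8 of 12 higher (median 0.12). At an unadjusted p under 0.05, 4 were lower over the pairs (Mthfd1l, Pycr1, Shmt1 and Shmt2) and 0 were called (limma adjusted p 0.171 for Shmt1 and 0.15 for Shmt2).

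Of 8 tested amino acid transporters, 5 were below 0 over the pairs and 0 were called. Slc7a5, the large neutral amino acid transporter LAT1, was lower in 5 of 5 pairs (-0.60, SE 0.14, limma adjusted p 0.15) and by 0.38 in the mock pair, and Slc1a5, the glutamine transporter ASCT2, was lower in 5 of 5 pairs (-0.57, SE 0.16, limma adjusted p 0.185) and by 0.19 in the mock pair. Of 12 other ATF4 target genes tested in both tables, 4 were above 0 and 8 below (median -0.05), and Ero1l and Vegfa, which other stress factors also induce, were higher in 4 of 5 pairs at 0.59 each. In the other direction, Stc2, which encodes a secreted glycoprotein, was lower in 4 of 5 pairs (-0.58, SE 0.19, limma adjusted p 0.218) and 0.87 higher in the mock pair, and Gdf15, a stress-induced secreted factor, was lower in the 3 plastic pairs (fitted change on plastic -1.15, SE 0.47, limma adjusted p 0.599) and higher in both induced BME pairs (0.48 and 0.12) and in the mock pair (1.11). None of these was called.

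Branches of the stress response outside ATF4 were listed for comparison. All 14 endoplasmic reticulum chaperones and ATF6 or XBP1 targets had a fitted change above 0 on plastic (median 0.26), and 11 of 14 in BME against the 4 control libraries (median 0.05). By line on plastic, 8 of 14 were higher in line 560 (median 0.04), 11 in line 700 (median 0.18) and 14 in line 889 (median 0.63), and 7 of 14 were higher in all 3, against 18.4% of all genes tested in both tables. Within BME lines, 9 of 14 were higher in line 700 (median 0.02) and 4 of 14 in line 889 (median -0.14), and 12 of 14 were higher in the mock pair (median 0.24). On plastic 2 passed an unadjusted p under 0.05 among higher genes (background 4.56%): Dnajc3, a chaperone that also inhibits PERK (0.98, SE 0.21, limma adjusted p 0.307), and Dnajb9 (1.44, SE 0.41, limma adjusted p 0.456). Dnajc3 was higher in 5 of 5 pairs and by 0.44 in the mock pair. Of 6 mitochondrial stress chaperones and proteases, 5 were below 0 over the pairs, with Lonp1 lower in 5 of 5 (-0.35, limma adjusted p 0.223) and Hspe1 in 4 of 5. Of 9 HIF1 targets, 8 were above 0 over the pairs (median 0.25) and 0 were called. By pair, 8 of 9 were lower in BME line 889 (median -0.53) and 7 of 9 higher in plastic line 889 (median 0.76). The largest mean changes over the pairs were those of Adm (0.69 to 3.87 on plastic, -0.07 and -0.14 in BME) and Bnip3 (2.36 in plastic line 889, -0.53 in BME line 889). Of 9 p53 targets, 1 was called: Cdkn1a, the cell cycle inhibitor p21, rose by 1.86 over the pairs (SE 0.19, limma adjusted p 0.0228), in 5 of 5 pairs, and was 0.86 higher in the mock pair. The other 8 were not called, and Eda2r was lower in 4 of 5 pairs (mean change -0.58).

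**Figure D5:**
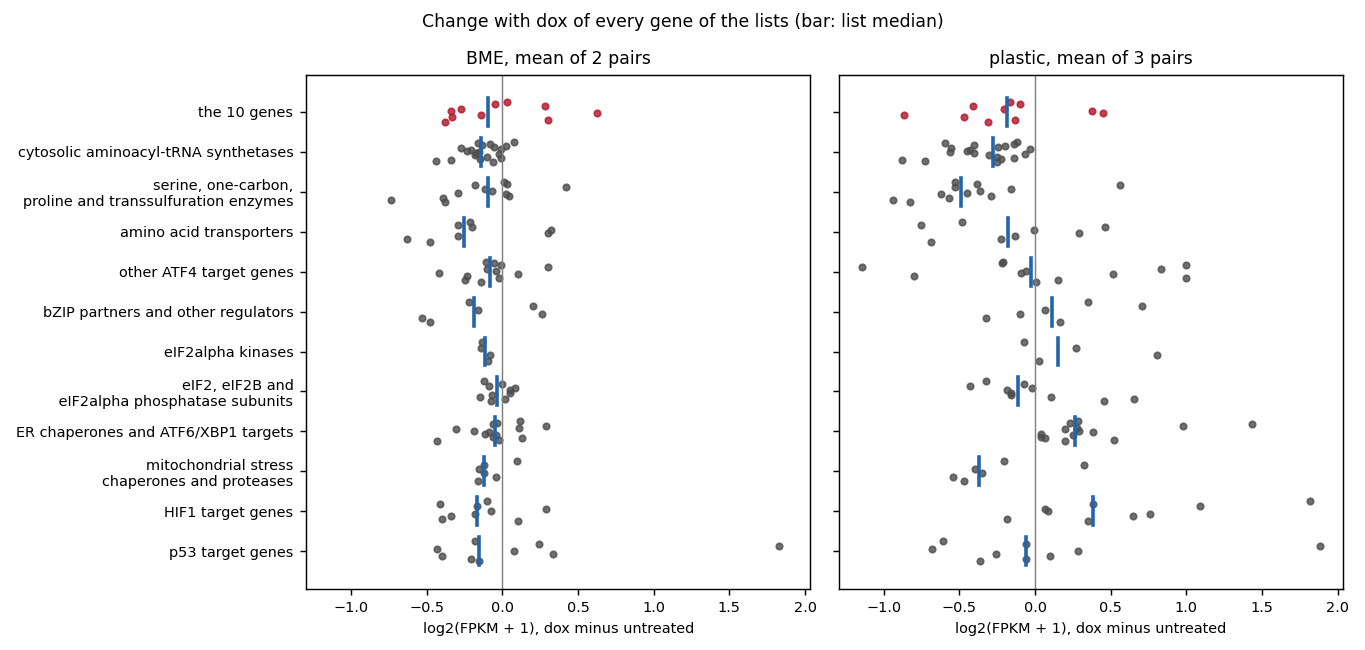
Change in log2(FPKM + 1), dox minus untreated, averaged over the 2 induced BME pairs (left) and the 3 plastic pairs (right), for every gene (points) of the 10 (red) and of 11 pathway lists (gray), with the median of each list as a bar. On plastic every aminoacyl-tRNA synthetase lies below 0 and every endoplasmic reticulum chaperone above 0, while the 10 genes lie on both sides in both environments.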

How the data were processed

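Expression of 10 integrated stress response genes was examined in 12 RNA-Seq libraries. The authors quantified reads with kallisto and used DESeq2, per the study's methods. The submitters' processing notes also name DESeq and mm9, with no role. Versions and transcript annotation are not given in the sources used here. The deposited values are FPKM, 1 table per environment. The authors' deposited comparison tables hold a mean normalized count (signal), used here to rebuild reads, and log2 fold changes, standard errors, scores, p-values and adjusted p-values, which were not used. Reads were rebuilt from the steps between low FPKM values (86.1% to 89.0% of values under 20 came out whole within 0.05), and the precision of low genes is limited by them.

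A mean of at least 0.5 FPKM over a table was required for testing (12996 in BME, 12333 on plastic, 11977 in both). All 10 genes passed this filter in both tables. log2(FPKM + 1) was fitted with limma 3.58.1 (trend, two-sided, Benjamini-Hochberg over all genes tested) in R 4.3.3 and tested on simulated data. BME compared 2 dox with 4 control libraries including the mock library, as the study counts them. The 5-pair fit had the pair as a block, and the environment difference was an interaction. p-values measure the spread between these libraries. Within a line, the untreated and dox libraries deviated together from their group means (correlation over genes 0.247 to 0.743), and same-numbered organoids were taken as 1 animal's line, so lines pair the samples. Alternatives were pseudocount, filter, scaling, block, the mock library's arm, 1 mean difference per line, leaving out each library, and, added after seeing the data, limma-voom on rebuilt reads.

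The 10 genes, the other lists (written from general knowledge) and the tests were chosen with earlier results of these data known. Named from each other list were the called genes and otherwise the 2 genes with the largest mean change over the induced pairs. The other genes named, those at an unadjusted p under 0.05 and Psph, were chosen after their values were seen. Promoters come from RefSeq.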

Additional observations from a re-analysis of the deposited data

How the results depend on the processing

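None of the 10 genes was called under any alternative. Trib3, Chac1, Psat1, Phgdh and Ddit4 over the 5 pairs kept their sign in all alternatives, as did Atf5, Ddit3, Trib3, Psat1, Phgdh and Ddit4 on plastic. The number of genes called over the whole table was unstable. In BME it went from 3 to 1 with a pseudocount of 0.1, to 1 with limma-voom on rebuilt reads (added after seeing the data), and to 0 with the line as a replicate block, with the mock library left out or with it counted with dox. On plastic it went from 4 to 10 with the pseudocount, 0 with no filter, 7 with the block and 10 with limma-voom. Over the pairs it went from 26 to 1 with no filter, 8 with 1 mean difference per line and 45 with limma-voom, and was 20 with no replicate block. For the environment difference it went from 0 to 5 with no filter. Leaving out 1 library gave 0 to 37 in BME (37 without the dox library of line 700, otherwise 0), 0 to 55 on plastic (55 without the dox library of line 700, 2 without that of line 889, otherwise 0), and leaving out 1 pair gave 2 to 14 (14 without the BME and 7 without the plastic pair of line 700, 2 without that of BME line 889 or of plastic line 560, 12 without that of plastic line 889). The cause was not tested.

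Changes of sign among the 10 genes were as follows. The BME, plastic and environment fits are unpaired unless a block is named. Leaving out 1 library from them also shifts the balance of lines between arms. In BME, Asns was -0.0026 with median-of-ratios scaling. The block gave Atf4 -0.049, Atf5 0.28 and Chac1 -0.27. Atf5 was 0.20 with the mock library left out and 0.43 with it counted with dox, where Atf4 was -0.035. With limma-voom Atf4 was -0.032, Asns -0.071 and Sesn2 -0.036. Leaving out 1 library moved Atf5 from -0.21 to 0.15, Ddit3 from -0.22 to 0.026, Trib3 from -0.18 to 0.11, Asns from -0.075 to 0.076, Chac1 from -0.10 to 0.74, Psat1 from -0.17 to 0.047, Phgdh from -0.37 to 0.016 and Sesn2 from -0.33 to 0.36. On plastic it moved Atf4 from -0.24 to 0.10, Asns from -0.28 to 0.0024, Chac1 from -0.36 to 0.064 and Sesn2 from -0.40 to 0.012. Over the pairs, Ddit3 was -0.0089 with 1 mean difference per line and Sesn2 -0.016 with limma-voom, and leaving out 1 pair moved Atf4 from -0.15 to 0.069, Atf5 from -0.26 to 0.13, Ddit3 from -0.15 to 0.24, Asns from -0.18 to 0.043 and Sesn2 from -0.11 to 0.18. For the environment difference, the block gave Trib3 0.069 and Chac1 0.066, lines 700 and 889 alone gave Atf4 0.24, Trib3 0.32, Asns 0.022 and Chac1 0.38, and leaving out 1 library moved Atf4 from -0.28 to 0.060, Trib3 from -0.42 to 0.036, Asns from -0.28 to 0.0020, Sesn2 from -0.49 to 0.20 and Ddit4 from -0.52 to 0.10. Chac1 in BME rests on as few as 12 reads, which limits its precision.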
